A study of Sus scrofa with 16 samples.

Results

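PON3, the gene of paraoxonase 3, is 1 of 4790 genes named on an expression array and was measured in pig liver by 3 of its 43603 probes. These were every non-control probe that the array files name PON3, by gene name or by the symbol in the description. All 3 were among the 30097 probes bright enough to be tested, and all 3 were well above background in all 16 pigs. PON3 was chosen by its measured level, which lay in 2 separate ranges among these pigs. The division into pigs with a high and a low level therefore comes from the PON3 signal itself, by the widest gap between neighbouring pigs once sorted, and is described here with no test. As the signal was well above background in every liver, the pigs are called high and low below, not on and off. Whether the signal of the low pigs comes from PON3 RNA was not tested.

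The livers came from 8 low-RFI pigs (RFIneg) and 8 high-RFI pigs (RFIpl) of 20 kg body weight, all fed ad libitum. RFI, residual feed intake, is the part of feed intake that growth and maintenance do not account for. Total RNA of each liver was labelled with Cy3 and hybridised to 1 array, so that each value belongs to 1 animal. The labels give no sex, litter or genotype at PON3, and each selection line is represented by these 8 pigs alone, so selection on RFI cannot be told apart from any other difference between the lines. Whole liver was used, so fewer cells of a type and less RNA per cell cannot be told apart.

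Paraoxonases are a family of calcium-dependent enzymes that hydrolyse lactones, the cyclic esters of hydroxy acids. PON1 and PON3 are made chiefly in liver and travel in blood on high-density lipoprotein (HDL), where they are known for limiting the oxidation of lipids, whereas PON2 stays inside cells in many tissues. PON1 also hydrolyses organophosphates such as paraoxon, while PON3 is known for its action on lactones, including statins. The 3 genes lie side by side, in the order PON1, PON3, PON2 in the RefSeq annotation of the pig assembly Sscrofa11.1.

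The 3 probes have different sequences and are shown because the 2 ranges of PON3 can be read at each of them. They were designed on 2 records, which were not aligned here. A_72_P182996 was designed on the record EF537043, with a listed start at position 1762. A_72_P504977 and A_72_P223547 were both designed on NM_001044604, with listed starts at 1295 and 1355, so these 2 stretches adjoin without sharing a base. The first 30 bases of each 60-base probe are given as the files list them.
A_72_P182996: gctcttctggctgattcaataaccactatt
A_72_P504977: agtggaactataagtaaatgacaaacacca
A_72_P223547: ggaagtagaaaagcagaaagattacataat

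PON3 signal fell into a high range in 7 livers and a low range in 9, at every one of the 3 probes and with the same pigs on each side. A level is the log2 of a probe's signal less the log2 of its array's 75th percentile. At A_72_P182996, the brightest probe, the low pigs were high-RFI pig 6 at −0.69, low-RFI pig 1 at −0.33, high-RFI pig 2 at −0.26, low-RFI pig 2 at 0.12, low-RFI pig 5 at 0.13, high-RFI pig 3 at 0.18, high-RFI pig 7 at 0.33, low-RFI pig 6 at 0.54 and low-RFI pig 3 at 0.59. The high pigs were low-RFI pig 7 at 4.42, high-RFI pig 5 at 4.44, high-RFI pig 1 at 4.55, high-RFI pig 4 at 4.57, low-RFI pig 8 at 4.65, low-RFI pig 4 at 4.71 and high-RFI pig 8 at 4.85. Pigs of both lines stood in both ranges, and no pig lay between them. The widest gap, between low-RFI pig 3 just below it and low-RFI pig 7 just above it, was 3.84 on the log2 scale, or 14.3-fold, and the next widest gap between neighbours was 0.38. In scanner intensity the low pigs ran from 198 to 626 (median 467) and the high pigs from 7040 to 13500 (median 10300).

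**Figure D1:**
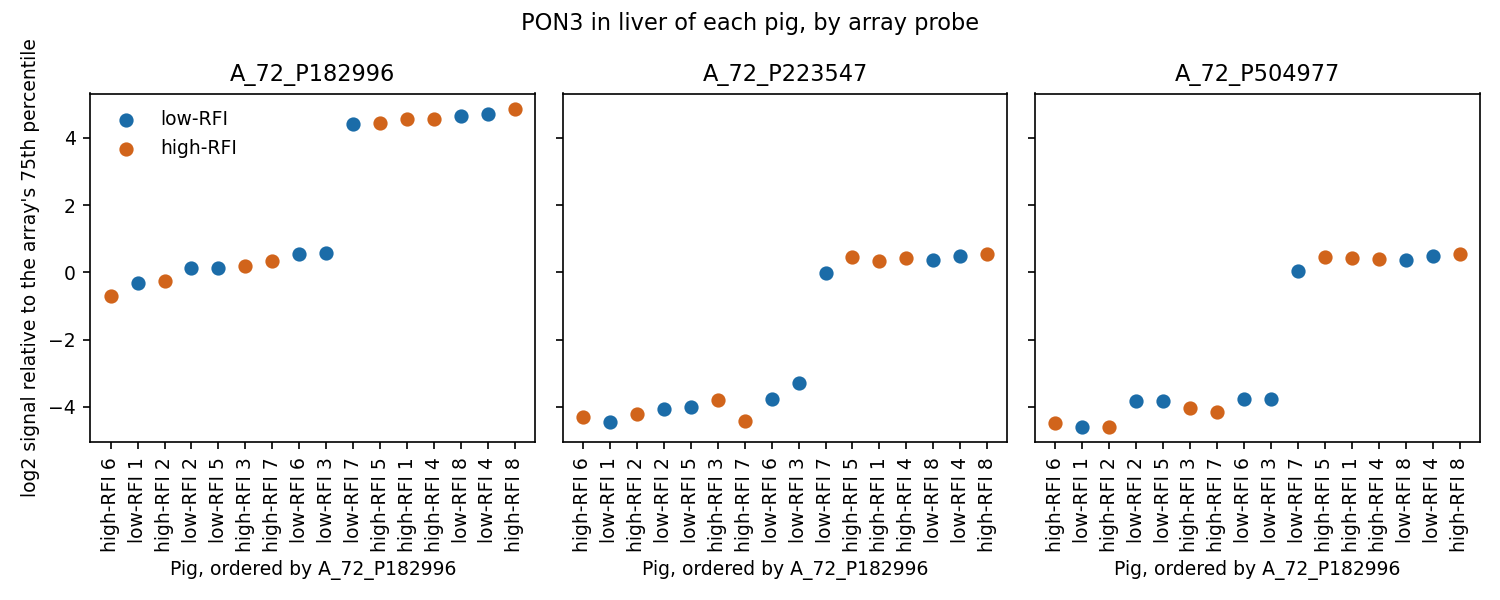
PON3 level of each pig (log2 signal relative to the array's 75th percentile) at the 3 probes, with pigs in the same order in each panel, rising at A_72_P182996, and coloured by line. At each probe the same 7 pigs stand above a gap of 3.28 to 3.84, with pigs of both lines on either side.

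The other 2 probes were dimmer and divided the pigs in the same way. At A_72_P504977 the low pigs ran from −4.59 to −3.77 (median −4.04) and the high pigs from 0.05 to 0.55 (median 0.43), with a gap of 3.81 (14.1-fold). At A_72_P223547 the low pigs ran from −4.45 to −3.29 (median −4.06) and the high pigs from −0.01 to 0.56 (median 0.42), with a gap of 3.28 (9.73-fold). In intensity, low pigs gave 14.2 to 30.5 at A_72_P504977 and 16.3 to 42.6 at A_72_P223547, while the median local background of the arrays was 29 to 40 before it was subtracted. Folds at these 2 dim probes therefore rest on low signals in the low pigs. With a background correction that adds an offset of 50 (normexp), the gaps were 2.18 and 2.13, and the division was the same.

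Within each range the pigs differed far less than between ranges. The high pigs spanned 0.43 at A_72_P182996, 0.51 at A_72_P504977 and 0.57 at A_72_P223547. The low pigs spanned 1.28, 0.82 and 1.16 at the same probes. Low-RFI pig 7 was the lowest and high-RFI pig 8 the highest of the high pigs at all 3 probes. Among the low pigs, low-RFI pig 3 was highest at A_72_P182996 and A_72_P223547. Pearson's r between pairs of probes, given as a description, was 0.65 to 0.98 over the 7 high pigs and 0.69 to 0.84 over the 9 low pigs. The probes share arrays and target RNA, so these values describe how closely they ran together and not separate measurements of the pigs.

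Gaps of this width were rare on the array. Of 30001 tested probes with a value on every array, 16 (0.0533%) had a gap of at least 3.28 with 3 or more pigs on each side, and the median widest gap was 0.167. The PON3 probes ranked 11, 12 and 16 among them by width. Of these 16 probes, those that divided the pigs as PON3 did were the 3 PON3 probes themselves, and these were also the 3 that carry a gene symbol.

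The division crossed line, slide and array position. High PON3 levels occurred in 3 of 8 low-RFI pigs and in 4 of 8 high-RFI pigs. By slide, 2, 1, 1 and 3 of the 4 pigs were high on slides 1 to 4, and by position on the slide 1, 2, 3 and 1 of 4. The sample numbers in the file names form 2 series of 8 pigs, of which 3 in the lower and 4 in the higher series were high. Every slide, position and series thus held pigs of both ranges.

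Between lines, PON3 did not pass the test at any probe. At A_72_P182996 the level was 1.85 ± 2.29 (SD) over the 8 low-RFI pigs and 2.25 ± 2.54 (SD) over the 8 high-RFI pigs, a change of −0.39 (low-RFI minus high-RFI, SE 1.09, 95% interval −2.69 to 1.90, limma adjusted p = 0.998). The exact two-sided permutation test over all 12870 splits of the pigs gave p = 0.891, and 0.929 over the 1296 splits that keep each slide balanced. The change was −0.47 (SE 1.06) at A_72_P223547 and −0.43 (SE 1.08) at A_72_P504977, with exact permutation p = 0.781 and 0.873. In both lines the SD reflects the presence of 2 ranges, and neither mean is a level that any pig had. The interval leaves room for a difference of several-fold either way. Within slides 1 to 4 the change at A_72_P182996 was 0.34, −2.19, −1.89 and 2.16, so its sign differed between slides. Of all 30097 probes, limma called 3 (0.00997%) at an adjusted p under 0.05, and 0 of the 3 PON3 probes were among them. At an unadjusted p under 0.05 limma counted 1640 (5.45%), again with 0 of the PON3 probes.

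**Figure D2:**
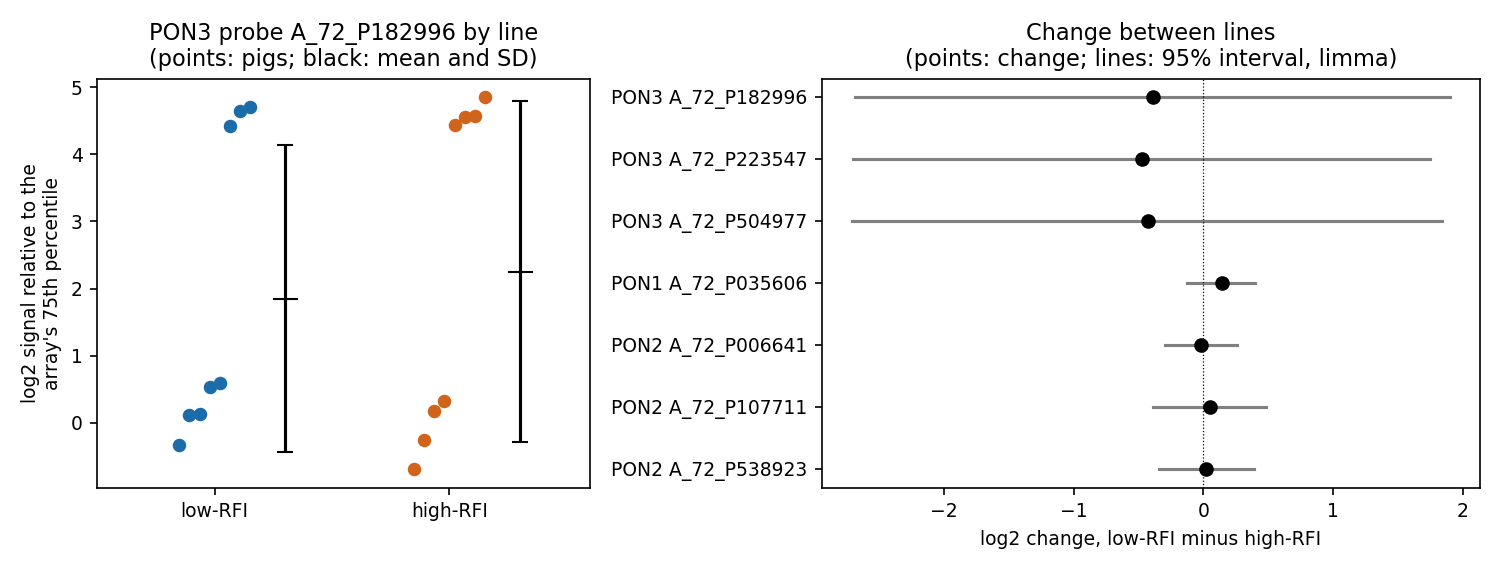
Left, PON3 level (log2 signal relative to the array's 75th percentile) of each pig at A_72_P182996 by line, with mean and SD in black; 3 of 8 low-RFI and 4 of 8 high-RFI pigs are high. Right, low-RFI minus high-RFI change (log2) of each paraoxonase probe with its 95% interval from limma; the intervals are widest for PON3 and all include 0.

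PON1 and PON2, the neighbours of PON3 in the genome and the rest of its family, had no gap like that of PON3, the widest with at least 3 pigs on each side being 0.11 for PON1 and 0.20 among the PON2 probes. PON1 lay at 5.38 to 5.98 (median 5.65) in low-RFI and 5.12 to 6.03 (median 5.50) in high-RFI pigs, a limma change of 0.14 (SE 0.126, adjusted p = 0.979). In the pigs with high PON3 it lay at 5.38 to 5.78 and in those with low PON3 at 5.12 to 6.03, so the PON1 levels of the high pigs fell wholly inside the range of the low pigs. PON2 has 3 probes, whose changes between lines were −0.02, 0.05 and 0.02 (limma adjusted p = 0.998 each). At its brightest probe, A_72_P006641, PON2 lay at 4.76 to 5.21 in the high-PON3 pigs and 4.86 to 5.67 in the low-PON3 pigs, overlapping, with 3 high pigs below every low pig. Pearson's r with PON3 over 16 pigs was −0.16 for PON1 and −0.31 to −0.19 for the PON2 probes. Since the pigs fall into 2 ranges of PON3, r within the 7 high and the 9 low pigs is given beside r over all 16. For PON1 it was 0.11 and 0.48, and for the PON2 probes −0.03 to 0.13 and 0.43 to 0.51.

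Among the other genes within 1 Mb of PON3, PDK4 ran closest to it. Of 16 annotated genes there, 11 have a symbol and 6 were tested, namely COL1A2, SGCE, PEG10, PON1, PON2 and PDK4. PDK4, pyruvate dehydrogenase kinase 4, which restrains glucose oxidation in fasting, has 9 probes, and all 9 had a positive r with PON3, from 0.37 to 0.71. At its brightest probe, A_72_P576424, the pigs with high PON3 lay at 4.82 to 5.18 (median 5.12) and those with low PON3 at 3.33 to 5.11 (median 4.56). Here 4 of the 9 low pigs lay above the lowest high pig, so the ranges overlapped. Low-RFI pig 2, whose PON3 was low, was lowest at all 9 probes, and without it r was 0.33 to 0.73 over the other 15 pigs. Within the high pigs r ran from −0.68 to 0.21 over the 9 probes, and within the low pigs from −0.08 to 0.51. PDK4 changed by −0.24 between lines (SE 0.233, limma adjusted p = 0.979). COL1A2, a fibrillar collagen chain, had r = −0.25 over 16 pigs, SGCE, a sarcoglycan, −0.02, and PEG10, an imprinted retrotransposon-derived gene, 0.06. Within the high and the low pigs r was −0.63 and −0.69 for COL1A2, 0.07 and −0.13 for SGCE, and 0.20 and −0.24 for PEG10.

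**Figure D3:**
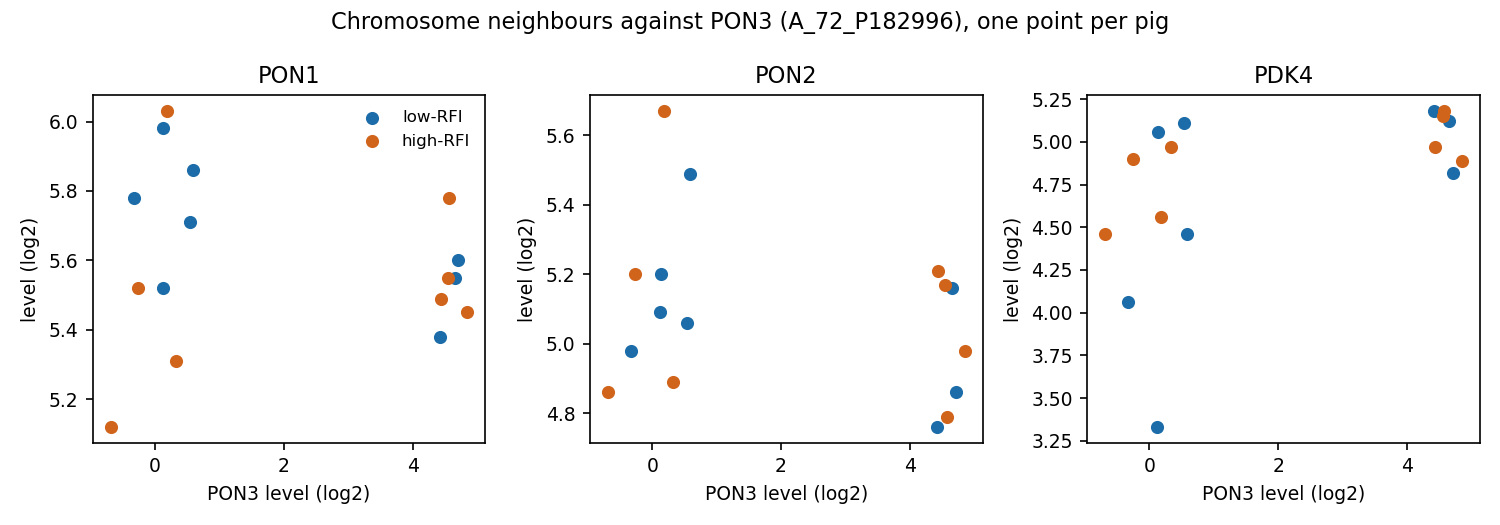
Levels of PON1, PON2 (A_72_P006641) and PDK4 (A_72_P576424) against PON3 at A_72_P182996, 1 point per pig, all as log2 signal relative to the array's 75th percentile and coloured by line. PON1 and PON2 overlap across the PON3 gap, reaching 5.78 and 5.21 in the high and 6.03 and 5.67 in the low pigs; PDK4 is at 4.82 or above in all 7 high pigs and spreads down to 3.33 in the low pigs.

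1 probe outside PON3 followed its division without overlap. Of 30094 probes other than those of PON3, this was 0.00332%, and with the PON3 probes 4 of 30097 (0.0133%). Among so many probes, 1 unrelated to PON3 can follow a division of 16 pigs, and a relation was not tested. The probe, A_72_P516662, is listed as TC481619, described in the files as unknown, and carries no gene symbol. It lay at 0.78 to 0.96 (median 0.84) in the pigs with high PON3 and 0.03 to 0.70 (median 0.49) in those with low PON3. The space between the 2 sets was 0.0874, small beside the PON3 gap, and the widest gap between neighbouring pigs in its own levels was 0.20, with 1 pig below it. Its r with PON3 was 0.78 over 16 pigs, −0.29 within the high pigs and 0.44 within the low pigs. Between lines it changed by −0.16 (SE 0.132, limma adjusted p = 0.979). No probe lay lower in every pig with high PON3 than in every pig with low PON3.

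No named gene followed the division without overlap, and those most like PON3 overlapped between the 2 sets of pigs. Likeness was measured by Pearson's r with A_72_P182996 over 16 pigs, for 4018 genes with a symbol, each by its brightest tested probe. The median over all probes was −0.02, with 27 of 30094 probes at 0.7 or above and 20 at −0.7 or below. Over these probes r ran from −0.83 to 0.80, and 5 had r at least as high as the first named gene, its own probe included. The ranks come from many values over the same 16 arrays and are a description. SEC14L3, a lipid-binding protein of the SEC14 family, came first with r = 0.76 (Spearman's rho 0.78). It lay at 4.23 to 5.38 (median 5.11) in the high-PON3 pigs and 3.92 to 4.71 (median 4.48) in the low-PON3 pigs. High-RFI pig 5 was the lowest of the high pigs, below 6 of the 9 low pigs, while the 6 other high pigs lay above every low pig. Within the sets r was 0.70 (high) and 0.45 (low).

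After SEC14L3 came ABHD16A, a phospholipid hydrolase (r = 0.73), FTCD, which links histidine breakdown to the folate pool (0.71), and TARBP1, an RNA methyltransferase (0.69). FTCD lay at 5.17 to 5.76 (median 5.61) in the high-PON3 pigs and 4.81 to 5.52 (median 5.05) in the low-PON3 pigs, where 2 low pigs passed the lowest high pig. IPO5, a nuclear import receptor, ATIC, which completes purine synthesis, and GUSB, the lysosomal beta-glucuronidase, each had r = 0.68. DCAF8, a substrate receptor of a ubiquitin ligase, had 0.66, GSTT1, a glutathione transferase, 0.65, and CPSF6, an mRNA cleavage factor subunit, 0.64. GSTT1 spread widely, at 3.56 to 4.55 in the high and 2.49 to 4.20 in the low pigs. Other probes of the same gene did not always share the pattern. For IPO5 the 4 other probes had r of 0.07 to 0.33, and for DCAF8 the 4 other probes had 0.02 to 0.62, whereas the second ATIC probe had 0.67. The 2 other TARBP1 probes had 0.45 to 0.48, and the 2 other CPSF6 probes 0.29 to 0.56. Within the high pigs r ran from 0.01 to 0.75 over the 10 genes, and within the low pigs from 0.28 to 0.71.

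The 5 genes with the lowest r were ADAMTS1, a secreted metalloprotease (−0.73), VLDLR, a lipoprotein receptor (−0.66), SNX31, a sorting nexin (−0.66), KLF4, a zinc finger transcription factor (−0.66), and ITIH4, a plasma protein of the acute phase (−0.64). ADAMTS1 lay at −0.66 to 0.23 (median 0.02) in the high-PON3 pigs and −0.00 to 0.87 (median 0.30) in the low-PON3 pigs, with 3 of 7 high pigs below every low pig. KLF4 had 6 other probes, all between −0.66 and −0.52. The other ADAMTS1 probe had −0.64, while the 2 other ITIH4 probes had −0.46 to −0.42. VLDLR and SNX31 were dim, and SNX31 was well above background in 13 of 16 pigs. With normexp correction r was −0.16 for VLDLR and 0.01 for SNX31. Within the 7 high pigs r was 0.05 for ADAMTS1, −0.05 for VLDLR, 0.55 for SNX31, 0.35 for KLF4 and −0.58 for ITIH4. Within the 9 low pigs it was −0.78, −0.75, −0.74, −0.51 and 0.16 in the same order. The sign over all pigs thus held in both sets for VLDLR alone of these 5 genes. Its r in the high pigs was only −0.05, however, beside 0.05 for ADAMTS1. Between lines the 15 genes changed by −0.28 to 0.24, with limma adjusted p of 0.977 to 0.998, so none passed.

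**Figure D4:**
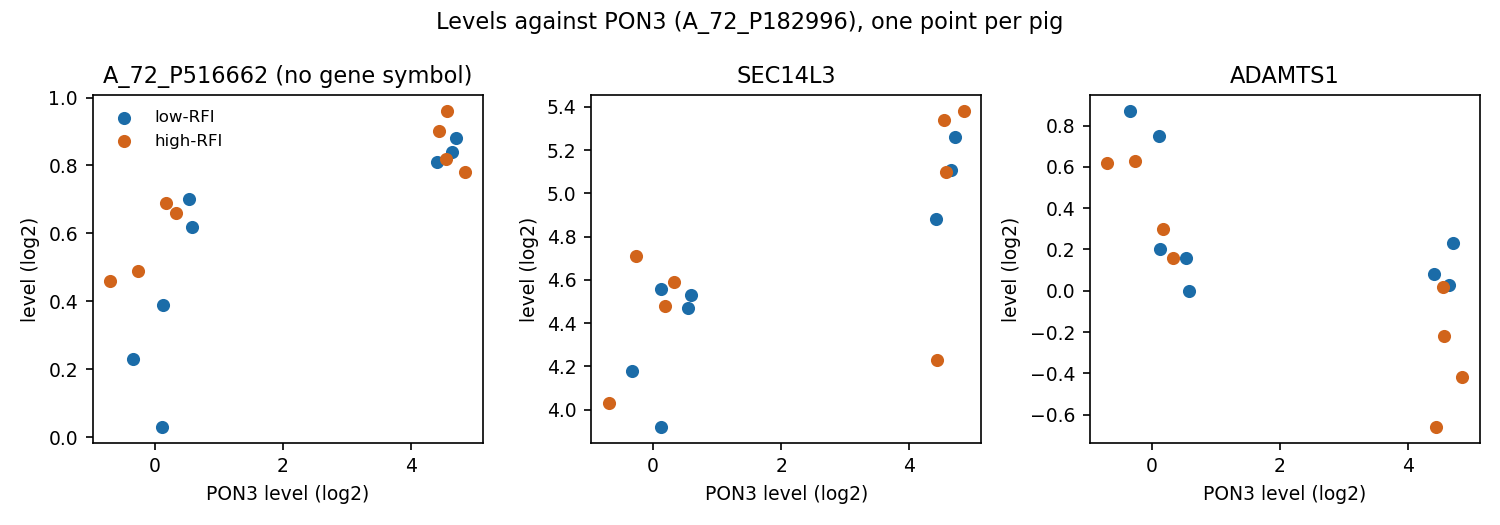
Levels of A_72_P516662, SEC14L3 and ADAMTS1 against PON3 at A_72_P182996, 1 point per pig, all as log2 signal relative to the array's 75th percentile and coloured by line. A_72_P516662 separates the 7 high from the 9 low pigs by 0.0874; SEC14L3 (r = 0.76) and ADAMTS1 (r = −0.73) overlap between the sets.

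Genes listed by function or by closeness in the genome were tested between lines and set against PON3. None of the lists had a member called or a member that followed the division. Over all 4019 named genes 0 were called by limma at an adjusted p under 0.05, 199 (4.95%) had an unadjusted p under 0.05, and the median change was 0.02, with 2189 higher and 1830 lower in the low-RFI pigs. Of 16 tested HDL and lipoprotein genes, 10 were higher and 6 lower in the low-RFI pigs, and their median change was 0.04. The r with PON3 had a median of 0.06. APOE, the apolipoprotein of remnant uptake, had 0.44, and APOA5, which promotes triglyceride clearance, −0.43. Within the high and the low pigs r was −0.12 and 0.33 for APOE and −0.50 and −0.37 for APOA5. The other APOA5 probe had −0.34 over 16 pigs. APOM, the HDL carrier of sphingosine 1-phosphate, had the smallest p of this list, at 6.94 ± 0.16 (SD) over the 8 low-RFI pigs against 6.63 ± 0.15 (SD) over the 8 high-RFI pigs, a limma change of 0.31 (SE 0.0948, adjusted p = 0.568).

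Of the listed esterases and hydrolases of lactones or epoxides, 9 were tested. Of these genes 4 were higher and 5 lower in the low-RFI pigs, and their median change was −0.02. Their r with PON3 had a median of 0.34 and ran from −0.29 to 0.58, while the median over all probes was −0.02. EPHX2, the soluble epoxide hydrolase, had 0.58, at 2.08 to 2.35 in the high-PON3 and 1.35 to 2.32 in the low-PON3 pigs. RGN, a gluconolactonase that also hydrolyses lactones, had 0.46, at 6.24 to 6.85 in the high and 5.79 to 6.76 in the low pigs. Both overlapped between the sets, and r within the high and the low pigs was 0.22 and 0.75 for EPHX2 and 0.03 and 0.42 for RGN. Over 16 pigs the other probe of each had 0.65 (EPHX2) and 0.43 (RGN). FAAH, a fatty acid amide hydrolase, had the smallest p between lines, at 2.55 ± 0.36 (SD) over the 8 low-RFI pigs against 2.01 ± 0.27 (SD) over the 8 high-RFI pigs, a limma change of 0.54 (SE 0.156, adjusted p = 0.493).

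Of 19 antioxidant genes, 14 were higher and 5 lower in the low-RFI pigs, and their median change was 0.10. Their median r with PON3 was 0.25. MSRA, which repairs oxidised methionine, had 0.58, and PRDX3, the mitochondrial peroxiredoxin, 0.49. The 2 other MSRA probes had 0.28 to 0.41, and the 14 other PRDX3 probes 0.21 to 0.52. Within the high and the low pigs r was 0.83 and 0.12 for MSRA and 0.35 and 0.60 for PRDX3. MSRA lay at 3.47 to 4.17 in the high-PON3 and 2.74 to 3.65 in the low-PON3 pigs. GPX3, the plasma glutathione peroxidase, was at 3.90 ± 0.49 (SD) over the 8 low-RFI pigs and 4.77 ± 0.65 (SD) over the 8 high-RFI pigs, a limma change of −0.86 (SE 0.265, adjusted p = 0.568). Of 21 regulators of lipid and xenobiotic genes, 6 were higher and 15 lower, with a median change of −0.07 and a median r of 0.08. CEBPA, a hepatocyte transcription factor, had r = 0.55, and JUN, a subunit of AP-1, −0.48. The other probe of each had 0.20 (CEBPA) and −0.49 (JUN). JUN ran the other way within the high pigs, with r = 0.87 there and −0.41 in the low pigs, and CEBPA had 0.54 and 0.05. CEBPA also had the smallest p of this list between lines (limma change −0.32, SE 0.164, adjusted p = 0.945). Of 5 genes of mitochondrial coenzyme Q and membranes, 3 were higher and 2 lower, COQ6 had r = 0.30 (0.59 in the high and 0.38 in the low pigs), COQ5 0.16 (0.11 and 0.16), and COQ3 changed by 0.54 (SE 0.153, limma adjusted p = 0.493). The 3 other COQ6 probes had r of 0.03 to 0.26 over 16 pigs. Of the 6 neighbours, 1 was higher and 5 were lower, and PEG10 had the smallest p, with a change of −0.79 (SE 0.277, limma adjusted p = 0.692).

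Markers of liver cell types and the quality of the arrays overlapped between the pigs with high and low PON3. The mean level of the 6 tested of 11 listed markers of hepatocytes, the cells known to make PON3, was 8.69 to 9.13 in the high and 8.52 to 9.06 in the low pigs (r = 0.01). For pericentral hepatocyte markers r was −0.06, for Kupffer cells and macrophages −0.32, stellate cells −0.37, endothelium −0.38, bile duct −0.05, T and NK cells 0.00, granulocytes 0.09 and tissue taken along from pancreas, fat, muscle, kidney or gut −0.15, and 1 B and plasma cell marker had −0.40. The 3 lists farthest from 0 overlapped between the sets. The B and plasma cell marker, 1 tested of 6 listed, lay at −6.11 to −4.28 in the high and −5.06 to −3.98 in the low pigs. The mean of 5 of 7 endothelial markers lay at 0.25 to 0.68 and 0.31 to 0.89, and that of 6 of 8 stellate markers at 0.48 to 1.09 and 0.53 to 1.59. Within the high and the low pigs r was 0.39 and −0.26 for the B and plasma cell marker, −0.21 and −0.40 for endothelium and 0.16 and −0.75 for stellate cells. For hepatocytes it was −0.52 and −0.08, and over the other 6 lists it ran from −0.71 (T and NK cells) to 0.65 (granulocytes) in the high pigs and from −0.82 (bile duct) to 0.19 (T and NK cells) in the low pigs. Their part in the PON3 levels was not tested. Of 7 erythroid markers, 0 were found on the array by symbol. UTY, a Y-linked gene, was dim at −5.29 to −4.95 in the high and −5.45 to −3.81 in the low pigs, and no sex was taken from it. Between 28579 and 31812 probes exceeded background clearly in the high pigs, and between 28953 and 34983 did in the low pigs. The most were in high-RFI pig 6, which also had the lowest PON3 level at A_72_P182996 and the lowest median correlation with the other arrays, 0.971 against up to 0.984. The 75th percentile of signal was 328 to 508 and 320 to 445 in the high and low pigs, and the coefficient of variation of 25 replicated probes 6.02 to 8.77% and 6.52 to 8.17%. Precision is limited by the 16 arrays, the median SE of a change between lines being 0.16, and p-values measure the spread between these pigs alone.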

How the data were processed

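Liver RNA of 16 pigs was hybridised to 1-colour Agilent arrays, 1 per pig, 8 per line on 4 slides. The authors deposited scanner files, whose processed signal is a linear intensity that Feature Extraction 10.7.3.1 had freed of local background, per the file headers. The deposited flags (well above background, outlier, saturated) are scores of 0 or 1, and no PON3 spot was saturated. The authors also deposited a table of log2 values of 27938 spots, which equalled the log2 processed signal less 1 shift per array (largest difference 4.5e-08). The submitters' processing notes name R 2.10.0. Other steps, and the array design's build, are not given in the sources used here.

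Outlier spots were dropped, each array's log2 values were lowered by their 75th percentile, and spots of a probe were averaged. Probes well above background on at least 8 arrays were tested (30097, with 13506 left out). Lines were compared with limma 3.58.1 in R 4.3.3, fitted over all tested probes, with Benjamini-Hochberg adjustment and a threshold of 0.05, and with exact permutation tests for the paraoxonase probes. The analysis was tested on simulated data. For limma these were drawn from normal distributions, so levels in separate ranges, as PON3 has, were not simulated there. Tables were handled with pandas 2.3.3 and figures drawn with matplotlib 3.10.9. Of 43603 probes, 11294 carry a symbol, from the files and RefSeq tables, where 5461 of 5779 accessions matched. The RefSeq table, of assembly Sscrofa11.1, gave names, gene order and the genes within 1 Mb of PON3. Probes were not placed on that assembly, since the build of the array design is unknown. Probe sequences come from the deposited files.

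PON3 is represented by its brightest probe. Named are all paraoxonase probes, the 3 neighbours of largest r, the 10 genes of highest and 5 of lowest r, every probe following the division, and from each list the 2 genes of largest r and the one of smallest p. The members and lists were chosen with earlier results of these data known. Alternatives were background correction (normexp), scaling (quantile, median, cyclic loess), the authors' table, outlier spots kept, other filters, slide, replicate number or sample-number series as a block, each slide alone, variance model, array weights, a threshold of 0.1, other probes, rank correlation and each pig left out. The position on the slide as a block was added after seeing the data.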

Additional observations from a re-analysis of the deposited data

Results flagged for a closer look

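Of 82 sets of 8 pigs (1 probe in 1 line) examined for a pig far from the rest, 5 were picked out, where chance picks about 1 in 20. None was a PON3 probe. The measure is the gap between the outermost pig and its neighbour as a share of the range. At the PON3 probes the wide gap lies inside each line, so the measure could not pick out a pig there. PON2 at A_72_P538923 was 2.23 in high-RFI pig 3, whose PON3 was low, against 0.93 to 1.40 in the other high-RFI pigs. SNX31 was −5.93 in low-RFI pig 7, whose PON3 was high, against −5.30 to −4.75 in the other low-RFI pigs. RGN was 5.79 in low-RFI pig 2, whose PON3 was low, against 6.40 to 6.65 in the other low-RFI pigs. FAAH was 1.44 in high-RFI pig 6, against 1.94 to 2.36 in the other high-RFI pigs. UTY was −3.81 in high-RFI pig 6, against −5.29 to −4.63 in the other high-RFI pigs.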

How the results depend on the processing

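Of 326 values recomputed under alternatives, 16 were counted as moved and 310 as not moved. The latter include PON3 changes on 1 slide alone, and the list of genes like PON3 under median scaling and cyclic loess. Apart from these, they stayed on their side of the threshold or, with no test, near the reported value. On slides 2 and 3 alone the change was −2.19 and −1.89 at A_72_P182996, against −0.39, and was not counted as moved. It was −2.36 and −1.53 at A_72_P223547, and −2.15 and −1.89 at A_72_P504977, counted in the same way. None of the recomputed PON3 changes was called, and r and the list medians had no test, so no called value could change sign. Of the values not called, 8 changed sign. These were the PON3 change on slide 1 alone at A_72_P182996 (0.34) and A_72_P504977 (0.13), that on slide 4 alone at all 3 probes, the r of SNX31 with normexp (0.01), and the median change of esterases and hydrolases with normexp and with median scaling (0.01 each, against −0.02). The coenzyme Q list, at 0.00, ran from −0.06 to 0.04. The same 7 pigs were high under every alternative for the division. Its gap at A_72_P182996 was 3.67 to 3.88 under other corrections and scalings, and 3.28 if probe A_72_P223547 represents PON3. All 3 PON3 probes and A_72_P516662 followed the division under all 8 alternatives run for it. The PON3 change between lines was −1.19 to −0.02 over the fits to all slides, with limma adjusted p of 0.89 to 1.0. It was −1.19 with the position on the slide as a block and −0.81 to −0.02 with 1 pig left out, the ends being without high-RFI pig 6 and without high-RFI pig 8. On slide 4 alone it was 2.16 at A_72_P182996, 2.06 at A_72_P223547 and 2.17 at A_72_P504977, and the cause was not tested. The count of probes called between lines, 3, was 1 under the filter on all 16 arrays, 7 with array weights, 1 with normexp and 2 to 5 with 1 pig left out, with 5 without high-RFI pig 4 and without low-RFI pig 2. Of the 15 genes named for likeness, 9 were named again with normexp, 9 with quantile normalization and 6 with Spearman's rho. With median scaling and with cyclic loess 10 were named again, which was not counted as moved. The authors' table gave 13. Same-numbered pigs of the lines were not paired by the labels, and their deviations correlated at 0.05 to 0.40, with 11 of 16 pigs closest to their own number. The main limma fit and the permutations took the pigs as independent and left this likeness out, and its source was not tested. With the replicate number as a block the PON3 change was −0.39 (SE 0.862, limma adjusted p = 0.934) and 4 probes were called. Scaling moved the median change of all genes to 0.01 to 0.05. At A_72_P504977 and A_72_P223547, the low pigs gave intensities of 14.2 to 42.6, and with the normexp offset the gaps were 2.18 and 2.13 against 3.81 and 3.28.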
